A study of Mus musculus with 9 samples.

Results

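Endoplasmic reticulum-associated degradation (ERAD) is the route by which misfolded proteins of the endoplasmic reticulum (ER) are recognised, moved back across the ER membrane, ubiquitinated and passed to the proteasome. The genes described here are 34 mouse genes of this route, taken by gene symbol from a list of its lectins, mannosidases, membrane channel components, ubiquitin-conjugating enzymes (E2), ubiquitin ligases (E3), the ATPase VCP with its adaptors and other factors. All 34 of 34 were found among the 27179 gene identifiers of the count table, and all 34 had enough counts to be tested. The rule uses gene symbols and no measured value, but the list was drawn up with earlier results of these data known.

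As background, ERAD begins when mannosidases trim the glycans of a protein that fails to fold and lectins bind the trimmed glycan. A complex around the ligase SYVN1 (HRD1) and its partner SEL1L then moves the protein through the membrane, ubiquitin is attached, and VCP (p97) pulls the protein into the cytosol. B cells that are activated to make antibody load the ER with immunoglobulin, and many ERAD genes are induced by the unfolded protein response (UPR). UPF1 is the RNA helicase at the centre of nonsense-mediated decay of mRNA (NMD). It is phosphorylated (p-UPF1) on mRNAs that have been picked out for decay.

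The RNA came from splenic B cells of wild-type mice, isolated as CD43-negative cells and kept for 72 h with 3 stimuli. The labels name these as CD40L at 5 ug/mL, an antibody to IgM at 10 ug/mL and IL-4 at 20 ng/mL, while the study's methods give an antibody to CD40 in place of CD40L. The 3 groups shared genotype, cells and stimulation and differed only in the RNA taken: RNA of the lysate (input), RNA precipitated with normal rabbit IgG, and RNA precipitated with an antibody to p-UPF1, with 3 libraries in each. Total counts were 23251890 to 24802119 for the p-UPF1, 17372510 to 18550508 for the IgG and 19873687 to 24945286 for the input libraries, and 13129 genes were tested. All 5 B cell markers examined were detected, with summed levels (in CPM, counts scaled to a common library total with TMM factors) of 2087 to 2165 for p-UPF1, 2346 to 2432 for IgG and 3041 to 3061 for input. Summed T cell markers reached at most 1.43 CPM, myeloid markers 0.730 and NK cell markers 0.499, and both erythroid markers were at 0. The plasma cell markers Sdc1 and Prdm1 were both detected, with summed levels of 17.9 to 19.2 CPM for p-UPF1, 22.3 to 26.2 for IgG and 18.4 to 21.9 for input, and their part in the values below was not tested. The labels do not say whether replicates came from separate mice or cultures. The study's methods call the data points of its graphs biological replicates without naming these libraries, so P values are read here as measuring the spread between libraries. By the same methods, input and precipitates were taken from a lysate, and which libraries shared one is not stated.

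To ask which ERAD mRNAs were recovered with p-UPF1, each was compared with both controls. The ERAD mRNAs split widely. Those of an E2 enzyme (Ube2g2), a membrane protease (Rhbdd1), an E3 ligase (Tmem129), an ER membrane scaffold (Erlin1), an oxidoreductase (Foxred2), a cochaperone (Dnajb2) and an ER mannosidase (Man1b1) were 4.12 to 10.03 times as abundant in p-UPF1 as in either control, while the mRNAs of the ligases Rnf139 and Rnf5 lay 2.72 to 3.20 times below them. By the criterion of the study's methods, an RNA was called p-UPF1-bound where the adjusted P was under 0.05 in both comparisons and the log2 fold change reached 1 over IgG and 2 over input. This was met by 7 of the 34 ERAD mRNAs (20.6%), beside 6.25% of all genes tested. Adjusted P values come from the quasi-likelihood test of edgeR and were adjusted by the Benjamini-Hochberg method over the 13129 genes. Beside levels in CPM, ± gives the SD of 3 libraries, and beside log2 fold changes it gives the SE.

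Without a minimum of size, 32 of 34 members (94.1%, beside 82.6% of all genes) differed from IgG and 31 (91.2%, beside 83.4%) from input. Of these, 18 members were higher in p-UPF1 than in IgG (52.9%, beside 40.4% of all genes) and 14 were lower (41.2%, beside 42.2%). The share of lower members was close to the background. Where the log2 fold change had to reach 1, 13 members were higher (38.2%, beside 22.2% of all genes) and 5 were lower (14.7%, beside 21.9%). The 5 became 8 (23.5%) with upper-quartile factors, beside 25.3% of all genes, and 8 with library size alone, beside 26.0%. Against input, 17 members were higher (50.0%, beside 40.8%) and 14 lower (41.2%, beside 42.6%). By at least 2 log2 units against input, 7 were higher (20.6%, beside 6.31%) and 0 lower (beside 9.67%). The median log2 fold change of the members was 0.26 over IgG and 0.14 over input, beside medians of -0.03 and -0.03 over all genes. The interquartile range over IgG was 2.57 for the members and 1.79 for all genes. Since both comparisons use the same p-UPF1 libraries, they are not independent of each other.

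Of all counts in a library, the 34 genes took 0.695% ± 0.00821 with p-UPF1, 0.429% ± 0.00754 with IgG and 0.435% ± 0.00316 in the lysate (SD, n = 3). The 7 bound members, which the criterion picks for their level in these p-UPF1 libraries, took 0.0461% of input, 0.0454% of IgG and 0.285% of p-UPF1 counts. The other 27 took 0.389%, 0.383% and 0.409%, a sum in which 6 members that were higher than in IgG by at least 1 log2 unit (Syvn1, Nploc4, Faf2, Edem3, Derl1 and Rnf185) stood beside the 14 that were lower. For 17 members all p-UPF1 values lay above all 6 control values (50.0%, beside 37.0% of all genes), and for 14 below all of them (41.2%, beside 37.6%). Each value is a share of its own library, so a fold change says how an RNA moved relative to the other RNAs. All groups came from lysates of the same kind of cells. A fold change over a control thus describes recovery in the precipitate, not the amount of an RNA per cell.

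**Figure D1:**
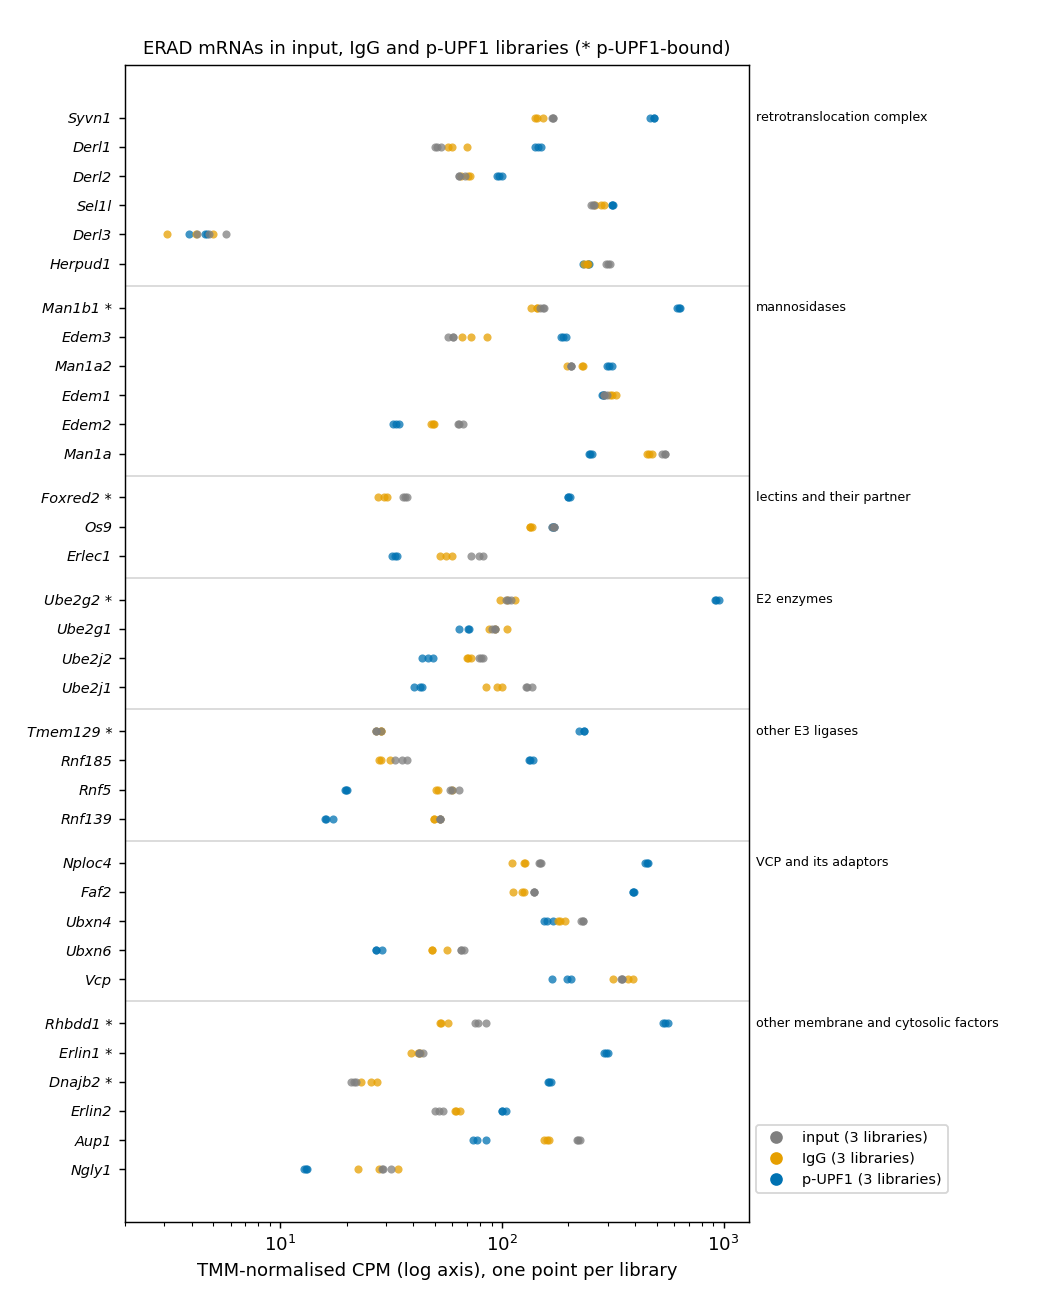
Levels of the 34 ERAD mRNAs in each of the 9 libraries, as TMM-normalised CPM on a log axis, grouped by role and ordered within a role by the log2 fold change of p-UPF1 over IgG. Each point is a library, an asterisk marks a p-UPF1-bound RNA, and the 3 blue p-UPF1 points lie to the right of all others for 17 members and to the left for 14.

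Short promoter sequences are shown first because several of these genes are known targets of the UPR, and the p-UPF1 readout can be set beside that property, which the choice of genes did not use. Promoter entries of RefSeq (GRCm38.p6, 250 bases before to 50 after the start of a gene) were found for 26 of the 34 members, and 3 motifs were searched on both strands. The ER stress element, CCAAT and CCACG parted by 9 bases of any kind, was found in 2 of the 26 (7.69%), beside 0.137% of the 27025 genes with an entry. The element ERSE-II, ATTGG and CCACG parted by 1 base, was found in 1 (3.85%, beside 0.0444%), and the UPR element core, TGACGTGG, in 2 (7.69%, beside 0.714%). The windows below are written 5′ to 3′ on the strand of the gene, with the motif in capitals. In Derl3 and Ube2j1 the motif lies on the opposite strand, so the capitals are its reverse complement.
Syvn1 (chr19:6046527-6046556, plus strand): cgcaaCCAATCGGCGGTAGCCACGggaaca
Derl3 (chr10:75893237-75893266, plus strand): tctacCGTGGGACTTCCCCATTGGctagcc
Herpud1 (chr8:94386368-94386397, plus strand): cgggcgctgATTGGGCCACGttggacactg
Ube2j1 (chr4:33031301-33031330, plus strand): cgaagcgcccgCCACGTCAggccgacttca
Vcp (chr4:43000603-43000632, minus strand): ctgcggccaatTGACGTGGcgttactaggc
None of these 5 genes met the criterion for a p-UPF1-bound RNA, and none of the 6 bound members with a promoter entry held a match. With 6.25% of all genes bound and each motif in under 1% of all promoters, neither 0 departs from the background. Their log2 fold changes over IgG ran from -1.15 (Ube2j1) to 1.71 (Syvn1), with -0.91 for Vcp, 0.01 for Herpud1 and 0.11 for Derl3. A match is a description of letters, and no match says only that these letters are not in this window.

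The members are taken by role below. The counts for each role stand beside the same shares of all genes, 6.25% bound, 40.4% higher and 42.2% lower than in IgG, and with 3 to 6 genes in a role they are descriptions from which nothing is read about the role. The retrotranslocation complex had no bound member, and 4 of its 6 mRNAs were higher in p-UPF1 than in IgG, 0 lower. Syvn1 encodes the ligase at the centre of the complex. Its level in libraries A, B and C, an order kept below, was 487, 487 and 468 CPM in p-UPF1, 153, 142 and 145 in IgG and 169.6, 170.1 and 168 in input. The p-UPF1 libraries stood clear of both controls, with a log2 fold change of 1.71 ± 0.04 over IgG (SE, adjusted P = 6.37e-16, edgeR) and 1.51 ± 0.04 over input. Sel1l, the adaptor that steadies SYVN1 and joins it to the lectins, was at 316 ± 2.65 CPM in p-UPF1, 278 ± 13.2 in IgG and 257 ± 3.42 in input (SD, n = 3). Its groups did not overlap, but the log2 fold change over IgG was only 0.18 ± 0.04 (adjusted P = 5.25e-04, edgeR), and it no longer passed when libraries were scaled by their size alone or by upper quartiles. The mRNAs of the partners Syvn1 and Sel1l thus stood at different log2 fold changes in the same precipitates.

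The derlins are rhomboid-like membrane proteins that take part in the passage of substrates. Derl1 reached 151, 146 and 141 CPM in p-UPF1, against 57.3, 69.8 and 59.9 in IgG and 51.2, 53.2 and 50.3 in input. Its log2 fold change was 1.23 ± 0.06 over IgG (adjusted P = 9.20e-12, edgeR) and 1.502 ± 0.06 over input. Derl2 rose less, by 0.49 ± 0.05 (adjusted P = 1.21e-07, edgeR). Derl3 was the least abundant member, at 4.91 ± 0.742 CPM in input with a lowest count of 61 in a library, and its p-UPF1 level of 4.41 ± 0.444 CPM overlapped both controls. Its log2 fold change over IgG was 0.11 ± 0.19 (adjusted P = 0.601, edgeR), so no difference was detected. The parts of depth and of the spread between libraries in this were not tested. Herpud1, a stress-induced ER membrane protein that binds the complex, had 241 ± 7.94 CPM in p-UPF1 and 240.2 ± 5.33 in IgG, with a log2 fold change of 0.01 ± 0.04 (adjusted P = 0.867, edgeR). It turned to -0.13 with upper-quartile factors (adjusted P = 0.00902, edgeR) and to -0.15 with library size alone (adjusted P = 0.00253, edgeR), where it was called lower. Against input, where it stood at 302 ± 7.22 CPM, Herpud1 was lower, with a log2 fold change of -0.32 ± 0.04 (adjusted P = 1.17e-06, edgeR).

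Among the 6 mannosidases 1 was bound, 3 were higher than in IgG and 3 were lower, which is close to the shares of all genes in either direction. Man1b1 (NCBI Gene 227619, chr2:25332730-25352213, plus strand; gene positions are those of RefSeq, GRCm38.p6) encodes the ER mannosidase that makes the first cut on a glycan. It was measured at 639, 630.3 and 619 CPM in p-UPF1, 144, 136 and 145 in IgG and 155, 149 and 154 in input. The p-UPF1 libraries were far above the rest, with log2 fold changes of 2.15 ± 0.04 over IgG (adjusted P = 4.12e-17, edgeR) and 2.04 ± 0.04 over input. The second of these lies just above the minimum of 2, and Man1b1 was not called bound when libraries were scaled by their size alone or by upper quartiles, or when the fold minimum itself was tested. Man1a and Man1a2, mannosidases of the Golgi, went apart. Man1a, the more abundant of them in input at 539 ± 6.96 CPM, had 246, 249 and 256 CPM in p-UPF1 and 453, 461 and 477 in IgG, a log2 fold change of -0.89 ± 0.04 (adjusted P = 8.26e-13, edgeR). Man1a2 was higher in p-UPF1, by 0.48 ± 0.05 over IgG (adjusted P = 3.79e-07, edgeR).

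The EDEM proteins trim mannose further and mark proteins for removal, and their 3 mRNAs also went apart. Edem3 rose to 189.8, 195 and 184 CPM in p-UPF1 from 66.2, 73.0 and 86.2 in IgG and 57.5, 60.6 and 60.2 in input, with log2 fold changes of 1.34 ± 0.07 (adjusted P = 1.46e-11, edgeR) and 1.68 ± 0.07. Edem2 fell to 32.2, 34.3 and 33.4 CPM from 49.7, 49.0 and 47.8 in IgG and 66.7, 64.0 and 63.5 in input, with log2 fold changes of -0.55 ± 0.05 (adjusted P = 4.15e-08, edgeR) and -0.96 ± 0.05. Edem1 changed least of the EDEM mRNAs. It had 286 ± 1.82 CPM in p-UPF1 beside 316 ± 9.66 in IgG and 292 ± 4.16 in input, a log2 fold change of -0.14 ± 0.04 over IgG (adjusted P = 0.00197, edgeR) and -0.03 ± 0.04 over input (adjusted P = 0.432, edgeR). Without a low-count filter the first no longer passed (adjusted P = 0.0598, edgeR). The second turned positive under 4 of the other settings tried, past the threshold with an IgG library as the TMM reference (adjusted P = 0.0434, edgeR). It passed at -0.10 with upper-quartile factors (adjusted P = 0.0167, edgeR) and at -0.08 with library size alone (adjusted P = 0.0476, edgeR).

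Of the lectins and their partner, the partner was the bound member. Foxred2 (NCBI Gene 239554, chr15:77940522-77958503, minus strand) encodes a flavoprotein of the ER lumen that associates with the lectin OS9 and SEL1L. It was at 203, 199 and 198 CPM in p-UPF1, 27.6, 30.3 and 29.3 in IgG and 37.4, 35.8 and 36.7 in input, so every p-UPF1 library exceeded every control. The log2 fold change was 2.78 ± 0.05 over IgG (adjusted P = 1.90e-17, edgeR) and 2.45 ± 0.05 over input. Os9 encodes a lectin that hands trimmed glycoproteins to SEL1L. It had 170.0 ± 1.98 CPM in p-UPF1, 135 ± 1.42 in IgG and 171 ± 2.90 in input, so that it was higher than in IgG by 0.33 ± 0.04 (adjusted P = 4.10e-07, edgeR) while its log2 fold change over input was -0.01 ± 0.04 (adjusted P = 0.811, edgeR). That sign turned in 8 of the other settings, and Os9 was called higher than input at 0.11 with an IgG library as the TMM reference (adjusted P = 0.0143, edgeR) and at 0.12 without a low-count filter (adjusted P = 0.0266, edgeR). Erlec1, the other lectin, was lower in p-UPF1 than in both controls, at 33.6, 32.2 and 33.1 CPM against 59.6, 52.8 and 56.0 in IgG and 82.2, 78.8 and 73.1 in input. Its log2 fold changes were -0.77 ± 0.06 over IgG (adjusted P = 4.70e-09, edgeR) and -1.24 ± 0.06 over input.

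Among the E2 enzymes, which carry ubiquitin to the ligases, 1 of 4 was bound (beside 6.25% of all genes) and the other 3 were lower than in IgG (beside 42.2%). Ube2g2 (NCBI Gene 22213, chr10:77622321-77645990, plus strand) encodes the soluble E2 that AUP1 recruits to the ER. It was at 925, 951 and 914 CPM in p-UPF1, 98.0, 106 and 114 in IgG and 105, 107 and 111 in input. The 6 control libraries lay between 98.0 and 114 CPM, and the p-UPF1 mean was 8.76 times above IgG and 8.66 times above input. The log2 fold changes were 3.13 ± 0.05 (adjusted P = 1.15e-17, edgeR) and 3.11 ± 0.05 (adjusted P = 7.97e-18, edgeR). Per kilobase of transcript, Ube2g2 was the most abundant ERAD mRNA of the p-UPF1 libraries, at 458 CPM per kb, whereas Herpud1 led in input with 155 CPM per kb.

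The other 3 E2 mRNAs went the other way. Ube2j1 (NCBI Gene 56228, chr4:33031380-33052367, plus strand), a tail-anchored E2 of the SYVN1 complex, had 42.6, 40.2 and 43.9 CPM in p-UPF1, 85.2, 100.02 and 95.7 in IgG and 128, 138 and 130.2 in input. The 3 groups were in separate ranges, lowest in p-UPF1, at -1.15 ± 0.06 over IgG on the log2 scale (adjusted P = 2.09e-11, edgeR) and -1.64 ± 0.06 over input. Ube2j2, its relative, was at 46.4 ± 2.87 CPM in p-UPF1 and 70.9 ± 1.32 in IgG, a log2 fold change of -0.61 ± 0.05 (adjusted P = 1.24e-08, edgeR). Ube2g1, which shares its family name with Ube2g2, was at 68.9 ± 3.87 CPM in p-UPF1 and 95.4 ± 8.80 in IgG, a log2 fold change of -0.47 ± 0.06 (adjusted P = 2.46e-06, edgeR).

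The E3 ligases outside the SYVN1 complex included the member with the lowest log2 fold change over IgG. Of these ligases 1 of 4 was bound, 2 were higher and 2 lower than in IgG, again close to all genes in either direction. Tmem129 (NCBI Gene 68366, chr5:33653216-33657977, minus strand), a membrane-spanning ligase known from the virus-driven removal of MHC class I chains, was at 235, 236 and 223 CPM in p-UPF1, 28.6, 28.5 and 27.0 in IgG and 27.3, 27.2 and 28.5 in input. The controls lay within 2 CPM of each other and far below p-UPF1. On the log2 scale the change was 3.04 ± 0.05 over IgG (adjusted P = 9.95e-18, edgeR) and 3.06 ± 0.05 over input. Rnf185, a membrane-anchored ligase, was at 133, 138 and 134 CPM in p-UPF1, 31.4, 28.1 and 28.7 in IgG and 33.1, 37.3 and 35.4 in input. It fell short of the criterion by its log2 fold change over input, 1.94 ± 0.06, although that over IgG was 2.20 ± 0.06 (adjusted P = 1.74e-15, edgeR). Rnf185 met the criterion with an IgG library as the TMM reference or without a filter on low counts.

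Rnf5 (NCBI Gene 54197, chr17:34601099-34603561, minus strand), a close relative of Rnf185, was instead lower in p-UPF1. The levels were 20.0, 19.9 and 19.7 CPM in p-UPF1, 59.7, 50.5 and 51.8 in IgG and 59.5, 64.4 and 58.5 in input, with log2 fold changes of -1.44 ± 0.07 over IgG (adjusted P = 7.19e-12, edgeR) and -1.61 ± 0.07 over input. Rnf139 (NCBI Gene 75841, chr15:58889229-58902390, plus strand), the ligase TRC8 that also acts on sterol-regulated proteins, had the lowest log2 fold change of the members over IgG. It was at 15.9, 17.3 and 16.2 CPM in p-UPF1, 49.6, 52.9 and 49.3 in IgG and 52.8, 52.7 and 52.9 in input. The controls were within 4 CPM of each other and the p-UPF1 libraries 3.07 times below IgG, a log2 fold change of -1.62 ± 0.06 (adjusted P = 1.59e-13, edgeR) beside -1.68 ± 0.06 over input. In exons Rnf139 shares 51.2% of its bases with Tatdn1 on the opposite strand (10.5 CPM in p-UPF1, 10.6 in IgG), so if strand was not used in counting the reads of the overlap cannot be told apart.

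VCP, the ATPase that extracts ubiquitinated proteins, and its adaptors had no bound member, with 2 of 5 higher (40.0%, beside 40.4% of all genes) and 3 lower than in IgG. Nploc4, which forms the ubiquitin-binding cofactor of VCP with UFD1, had 441, 450.5 and 455 CPM in p-UPF1, 111, 126 and 127 in IgG and 148, 151 and 147 in input, with a log2 fold change of 1.89 ± 0.05 over IgG (adjusted P = 1.80e-15, edgeR) and 1.59 ± 0.05 over input. Faf2 (UBXD8), a membrane adaptor of VCP, was close behind at 392 ± 1.62 CPM in p-UPF1 and 121 ± 7.87 in IgG, a log2 fold change of 1.70 ± 0.05 (adjusted P = 2.72e-15, edgeR). Vcp itself was lower, at 169, 197 and 206 CPM in p-UPF1 against 316, 369.6 and 390.1 in IgG and 343, 349 and 349 in input. It had the widest spread of the members among p-UPF1 libraries (a coefficient of variation of 10.2%, beside a median of 2.61%), yet its p-UPF1 values stayed below all 6 controls, with a log2 fold change of -0.91 ± 0.07 over IgG (adjusted P = 4.89e-09, edgeR). Ubxn6, an adaptor at the other end of VCP, stood at -0.88 ± 0.06 over IgG (adjusted P = 1.67e-09, edgeR), and Ubxn4, an ER-anchored adaptor, at -0.19 ± 0.04 (adjusted P = 7.82e-04, edgeR).

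The remaining 6 membrane and cytosolic factors held 3 of the 7 bound members (beside 6.25% of all genes), with 4 higher (beside 40.4%) and 2 lower (beside 42.2%) than in IgG. Rhbdd1 (NCBI Gene 76867, chr1:82316457-82445366, plus strand), a rhomboid protease (RHBDL4) that cuts membrane proteins for degradation, had 545, 562 and 534 CPM in p-UPF1, 53.5, 57.2 and 52.9 in IgG and 77.8, 85.2 and 75.7 in input. No other member had a log2 fold change over IgG as large, 3.33 ± 0.05 (adjusted P = 7.69e-18, edgeR), beside 2.78 ± 0.05 over input. IgG libraries held less of it than input, with a log2 fold change of -0.54 ± 0.05 (adjusted P = 3.84e-07, edgeR). Dnajb2 (NCBI Gene 56812, chr1:75236395-75245692, plus strand), a DNAJ cochaperone that binds ubiquitinated clients, was at 162, 167 and 164 CPM in p-UPF1, 23.1, 27.3 and 25.7 in IgG and 21.7, 22.1 and 20.9 in input. Here IgG was the higher control, and the log2 fold changes were 2.69 ± 0.06 over IgG (adjusted P = 1.48e-16, edgeR) and 2.93 ± 0.06 over input.

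Erlin1 and Erlin2 form a ring-like scaffold in the ER membrane that takes activated IP3 receptors to degradation. Erlin1 (NCBI Gene 226144, chr19:44034943-44070164, minus strand) had 295, 300.1 and 289.5 CPM in p-UPF1, 39.2, 42.9 and 42.0 in IgG and 42.5, 42.5 and 44.0 in input. Its log2 fold changes of 2.83 ± 0.05 over IgG (adjusted P = 1.07e-17, edgeR) and 2.78 ± 0.05 over input met the criterion. Erlin2, whose protein shares the scaffold, rose by 0.69 ± 0.05 over IgG (adjusted P = 7.32e-10, edgeR), from 62.9 ± 1.84 to 102 ± 2.82 CPM (SD, n = 3). Of the members that fell, Aup1 (NCBI Gene 11993, chr6:83054495-83057682, plus strand), the lipid droplet and ER protein that recruits UBE2G2, was at 85.0, 74.4 and 77.0 CPM in p-UPF1, 163, 155 and 159.7 in IgG and 220.5, 219.7 and 225 in input. Its log2 fold changes were -1.01 ± 0.05 over IgG (adjusted P = 5.71e-12, edgeR) and -1.49 ± 0.05 over input, so the mRNAs of this E2 and of its recruiter moved in opposite directions. Ngly1 (NCBI Gene 59007, chr14:16249314-16311926, plus strand), the cytosolic enzyme that strips N-glycans from retrotranslocated proteins, was at 12.8, 13.1 and 13.2 CPM in p-UPF1, 22.5, 34.1 and 28.1 in IgG and 29.2, 31.7 and 28.8 in input. The IgG values were scattered but did not reach those of p-UPF1, and the log2 fold change over IgG was -1.12 ± 0.12 (adjusted P = 1.54e-07, edgeR).

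**Figure D2:**
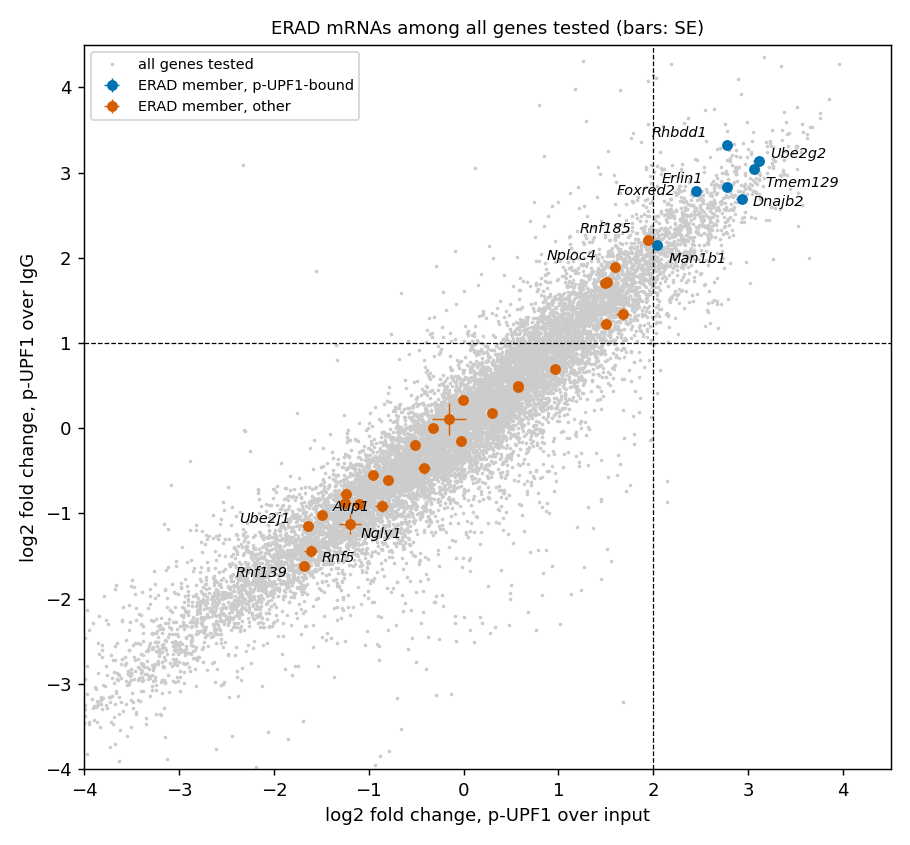
Log2 fold change of p-UPF1 over IgG (y axis) against that over input (x axis) for all genes tested whose values lie within the axes (grey) and the 34 ERAD mRNAs (bars, SE), with dashed lines at the minimums of 1 and 2 of the bound criterion. The axes share the p-UPF1 libraries. The 7 bound ERAD mRNAs lie in the upper right corner, with Man1b1 just inside and Rnf185 just outside the line at 2.

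Because scaling a library moves all its genes alike, related members were also compared by their ratio within a library, which no scaling factor touches. The log2 ratio of the counts of 14 related pairs, with 0.5 added to each count, was compared between the 3 p-UPF1 and the 6 control libraries by a two-sided exact permutation test, whose smallest possible P is 0.0238. All 14 pairs passed after Benjamini-Hochberg adjustment over the 14 (13 at 0.0256 and Derl2/Derl3 at 0.0476), and for 13 the p-UPF1 values did not overlap the controls. Over all 86178756 pairs of tested genes the share without overlap was 71.7%, so nothing is read from the count of pairs. Against IgG alone no pair can pass, since 3 against 3 libraries allow no P below 0.10, and the same holds without any single p-UPF1 library, where the smallest P is 0.0714. This test treats the 9 libraries as independent. Where the p-UPF1 label was exchanged only among the columns that carry the same letter, an alternative chosen after seeing the data, no pair could pass, and all 14 were at the smallest exact P that this allows, 0.0741. The sizes varied more than the P values, which are nearly all at the smallest value.

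For 3 pairs the ratio shifted by more than 3 log2 units. The log2 ratio of Rnf5 to Rnf185 was 0.84, 0.79 and 0.73 in input and 0.93, 0.85 and 0.85 in IgG, and -2.74, -2.79 and -2.77 in p-UPF1 libraries, a change of -3.60. Rnf5 reads thus outnumbered those of Rnf185 in every control library and were outnumbered in every p-UPF1 library. Ube2g1 to Ube2g2 stood at -0.17, -0.20 and -0.29 in input, -0.16, -0.01 and -0.30 in IgG and -3.70, -3.75 and -3.83 in p-UPF1, a change of -3.57 from near parity. For Man1a to Man1b1 the ratio was 1.81, 1.86 and 1.78 in input, 1.66, 1.76 and 1.72 in IgG and -1.38, -1.34 and -1.27 in p-UPF1, a change of -3.09. The order of these mannosidase mRNAs was thus turned over in p-UPF1. The shift of Erlin1 to Erlin2 was smaller, 1.97, from -0.35, -0.23 and -0.24 in input and -0.66, -0.60 and -0.56 in IgG to 1.56, 1.58 and 1.46, and here too the rarer of the pair became the more abundant.

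Within the EDEM family, Edem2 to Edem3 changed by -2.27 (p-UPF1 -2.56, -2.51 and -2.46, IgG -0.41, -0.57 and -0.85, input 0.21, 0.08 and 0.08), Edem1 to Edem3 by -1.60 and Edem1 to Edem2 by 0.67, so that Edem3 gained on both others. Among the derlins, Derl1 gained on Derl2 by 0.84 (p-UPF1 0.63, 0.54 and 0.57, IgG -0.33, 0.09 and -0.23, input -0.42, -0.27 and -0.35) and on the scarce Derl3 by 1.38, while Derl2 to Derl3 moved by 0.54 with overlapping values and did not pass without IgG library A or C or without any single input library. The lectins Os9 to Erlec1 changed by 1.17 (p-UPF1 2.35, 2.38 and 2.36, IgG 1.18, 1.37 and 1.25, input 1.07, 1.13 and 1.20). Ube2j1 to Ube2j2 changed by -0.69, Man1a to Man1a2 by -1.52 and Man1a2 to Man1b1 by -1.57. How reads that match more than 1 gene were counted is not stated, so the counts of close relatives are uncertain to that extent.

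**Figure D3:**
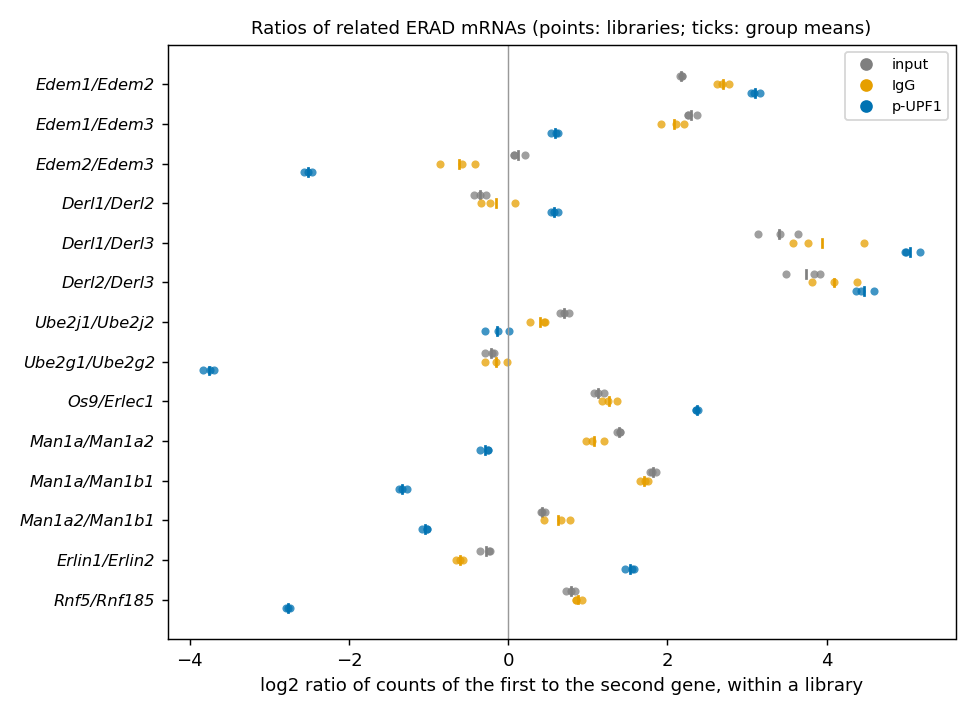
Log2 ratio of the counts of the first to the second gene in each library for the 14 related pairs, with a point per library and a tick at the mean of each group. The p-UPF1 points stand apart from input and IgG for 13 pairs, farthest for Rnf5/Rnf185 and Ube2g1/Ube2g2, and Derl2/Derl3 is the pair whose values overlap.

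The IgG precipitate gives the background of the procedure. Between IgG and input 6 members were higher in IgG (17.6%, beside 18.2% of all genes) and 18 lower (52.9%, beside 34.7%). These counts depended on the processing. The 18 fell to 12 (35.3%) with library size alone, beside 24.2% of all genes, with an IgG library as the TMM reference, beside 24.8%, and with only the 2 groups compared, beside 23.9%. The 6 ran from 4, without IgG library C or without any single input library, to 10 (29.4%) without a low-count filter, beside 16.3%. It was also 10 with only the 2 groups compared, beside 25% of all genes. The log2 fold changes ran from -0.54 (Rhbdd1) to 0.34 (Edem3), with a median of -0.18 beside -0.10 for all genes. These are small beside the range of p-UPF1 over IgG, which ran from -1.62 to 3.33. The split of all called genes between IgG and input depended on scaling: 34.4% of them were higher in IgG with TMM factors, and 38.6% to 52.6% with the other scalings. Replicates of the members were close, with a median coefficient of variation of 2.61% for p-UPF1, 4.95% for IgG and 2.26% for input, and Derl3 varied most in input (15.1%) and IgG (22.9%).

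Features of the mRNAs that are often named with NMD were set beside these values without a test. They were taken for each gene from a principal GENCODE M21 transcript and were known for 34 of 34 members and 11872 of the 13129 genes, while the count of other annotated transcripts was known for 34 and 12032. The median 3′ UTR length was 2053.5 nt for the members and 1016.5 nt for all genes tested. Within the members it was 1647 nt for the 7 bound, 2239 nt for the 27 others and 892 nt for the 5 that were lower by at least 1 log2 unit. Spearman's rho of 3′ UTR length with the log2 fold change over IgG was 0.20 across the 34 members and 0.32 across all genes, which share the same libraries and are not independent. The bound members ranged from 886 to 2638 nt, within the range of the others, 274 to 5402 nt.

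An upstream open reading frame was here a start codon and a stop codon in its frame, both within the 5′ UTR. It was present in 12 of 34 members (35.3%), beside 43.8% of all genes and 39.6% of all bound genes. Of the bound members 5 of 7 had one (71.4%), and of the other members 7 of 27 (25.9%). Tmem129 had 8, the most of any member, Rhbdd1 had 3, and Ube2g2, Erlin1 and Man1b1 had 1 each, while Foxred2 and Dnajb2 had none. Man1a2, with 6, and Rnf5, with 3, were not bound. No member had an exon junction more than 50 nt after its stop codon in that transcript, beside 0.404% of all genes. Over all transcripts of a gene, at least 1 annotated as an NMD target was listed for 13 of 34 members (38.2%, beside 29.0% of all genes) and for 3 of the 7 bound members. Counts per gene do not tell which transcript was precipitated. The level in input was weakly related to the log2 fold change over IgG, with Spearman's rho of -0.27 across members and -0.15 across all genes.

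**Figure D4:**
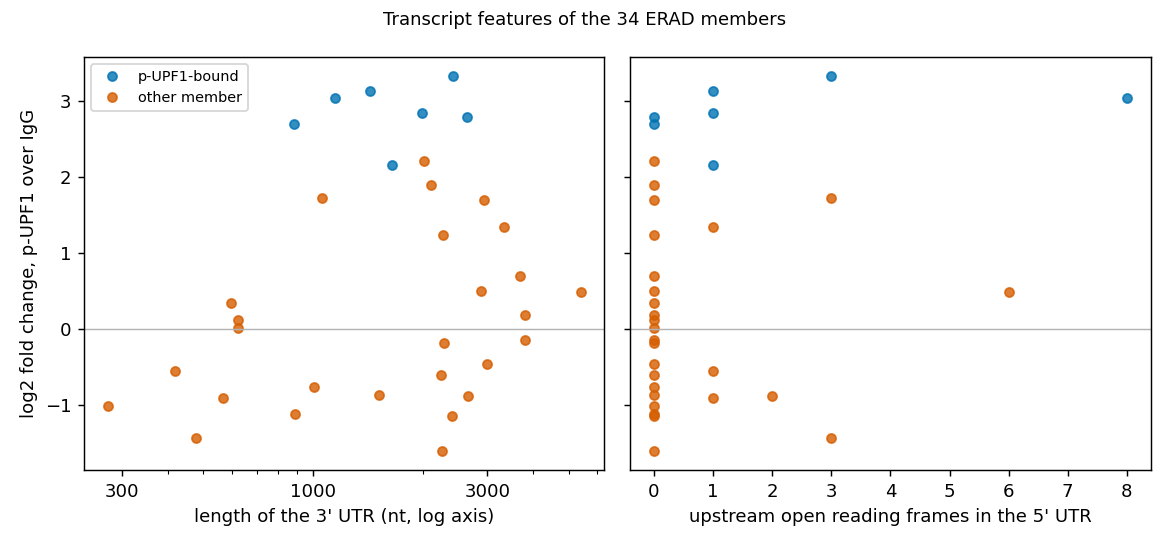
Log2 fold change of p-UPF1 over IgG for the 34 ERAD mRNAs against the length of the 3′ UTR in nt (left, log axis) and the number of upstream open reading frames (right). Blue points are the 7 bound members, which lie between 886 and 2638 nt on the left panel, and 5 of which have at least 1 upstream open reading frame on the right panel.

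The rest of the ER quality control system was described from lists drawn up for the purpose. Of 39 other ERAD genes 38 were tested, and 1 was bound (2.63%, beside 6.25% of all genes), Insig1, which ties sterol sensing to ERAD. It was at 849 ± 12.3 CPM in p-UPF1, 184 ± 3.99 in IgG and 165 ± 2.65 in input (SD, n = 3), with log2 fold changes of 2.20 and 2.36. Of the 38, 13 were higher and 18 lower than in IgG, with a median of -0.28. Their shares, 34.2% higher beside 40.4% of all genes and 47.4% lower beside 42.2%, were near the background. After Insig1 the highest were Ubl4a at 1.45, a member of the BAG6 complex, and Tmub2 at 1.43. The lowest were Dnajb9 at -2.38, the ER cochaperone ERdj4, Bcap31 at -1.84 and Trim13 at -1.74.

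The 16 ER chaperones and folding factors had no bound member (beside 6.25% of all genes), with 3 higher than in IgG (18.8%, beside 40.4%), 12 lower (beside 42.2%) and a median of -0.84. The lowest were Sdf2l1 at -2.01, Manf at -1.96 and Creld2 at -1.78, and the highest were P4hb at 0.60, Hyou1 at 0.44 and Dnajc3 at 0.38. The ER stress element was found in 8 of the 14 with a promoter entry (57.1%). Of the 32 proteasome subunits, which receive the substrates of ERAD, none was bound and 31 were lower than in IgG (96.9%, beside 42.2% of all genes), 28 of them by at least 1 log2 unit (87.5%, beside 21.9%), with a median of -1.81. The lowest were Psmb1 at -2.94, Psmb3 at -2.65 and Psmb7 at -2.63, and Psmd7 at 0.79 was the 1 that was higher. The highest value of the 34 ERAD members was 3.33, beside 2.20, 0.60 and 0.79 in these lists. Of the UPR transcription factors, Atf6 was at 2.08 over IgG and 1.97 over input, just under the input minimum, Atf4 at 1.13 and 0.59, and Xbp1, which drives many ERAD genes, at -0.82 and -1.13.

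**Figure D5:**
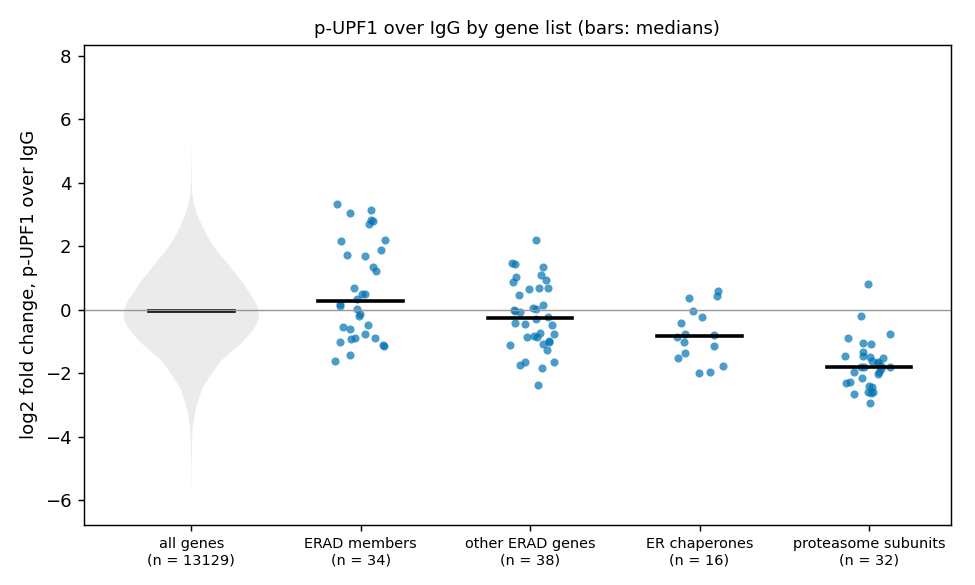
Log2 fold change of p-UPF1 over IgG for all genes tested (grey shape), the 34 ERAD members, 38 other ERAD genes, 16 ER chaperones and 32 proteasome subunits, with a point per gene and a bar at the median. The medians are -0.03, 0.26, -0.28, -0.84 and -1.81 from left to right.

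Several members overlap a gene on the opposite strand, and whether the counting used strand is not stated. The study's methods call the mapping of its RNA-seq reads unstranded, without naming the libraries used here. Apart from Rnf139, the overlap reached 16.8% of the exonic bases of Ubxn6 (with Chaf1a), 8.67% of those of Rnf185, 6.48% of those of Derl2 (with Mis12), 4.45% of those of Aup1 (with Htra2), 2.85% of those of Man1a and 2.43% of those of Syvn1 (with Mrpl49), and it was below 1% for Erlec1, Ngly1 and Edem1. Mis12 and Mrpl49 were themselves high in p-UPF1, at 244 and 331 CPM against 56.0 and 48.8 in IgG. Htra2 was lower, at 37.2 CPM against 57.9. Their part in the values of Derl2, Syvn1 and Aup1 was not tested. None of the 7 bound members shared an exonic base with an annotated gene on the opposite strand. On the same strand, the bound Erlin1 and Ube2g2 overlap Gm18230 and Mir1930. Syvn1, Os9, Erlec1 and Ubxn4 also overlap a gene on their own strand. How many exonic bases these share was not computed.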

How the data were processed

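RNA of input, IgG and p-UPF1 samples was sequenced from directional libraries. The authors deposited raw read counts per NCBI Gene number. Per the submitters' processing notes they used cutadapt, HISAT2, mm10 and featureCounts, with versions not given in the sources used here. Whether strand was used for these counts, and how reads matching several genes were treated, is not stated. The counts hold no molecular identifiers, so counting error understates the true error. Columns carry letters, so each was assigned to a group only.

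Symbols came from RefSeq (25275 of 27179 identifiers; unmatched ones held 0.379% of counts), and all unmatched rows stayed in the library totals. Genes were filtered with filterByExpr (minimum count 10, minimum total 15), scaled by TMM, and a model with the 3 groups was fitted to all 9 libraries in R 4.3.3 with edgeR 4.0.16 (glmQLFit, glmQLFTest, two-sided, prior count 0.125). TMM assumes that most genes do not change. SE were derived from the test statistic. Ratios of related genes were tested with scipy 1.17.1. The fit was also run on simulated counts in which few genes changed. Here 82.6% of genes differed from IgG, so that run does not bear on the scaling of these data. Alternatives used DESeq2 1.42.0, limma 3.58.1, other scalings and filters, leaving out each library, and a block on the column letters.

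The members, the comparison lists, the tests and the alternatives were chosen with earlier results of these data known. Values in every library were given for bound members, for the 5 highest and 5 lowest over IgG and, as ratios, for some of the related pairs. For the other pairs only the change was given. From other lists, bound genes and the 3 highest and 3 lowest were named, except that only the highest proteasome subunit was named beside the 3 lowest. Member mRNAs given library by library beyond that rule were chosen after their values were seen.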

Additional observations from a re-analysis of the deposited data

How the results depend on the processing

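The count columns carry the letters A, B and C in each group, and no source ties them to the numbers of the labels or to a lysate. Deviations from the group means correlated at -0.0051 to 0.054 over genes for columns of the same letter. For columns of different letters and groups they correlated at -0.056 to 0.022. A replicate block on the letters, chosen after seeing the data, left 7 members bound and changed no call of a member (10875 genes called over IgG with the block and 10845 without), but 0 of 14 pair ratios could pass. Of 68 log2 fold changes of members over IgG or input, 62 kept their direction and their side of the threshold in all 21 settings tried. The bound members numbered 6 to 8 over the settings, and the same 7 were bound in every leave-one-out fit. The members lower by at least 1 log2 unit than in IgG numbered 8 after scaling by upper quartiles and 8 by library size (4 to 5 leave-one-out). Members higher in IgG than in input numbered 10 without a low-count filter and 10 with only the 2 groups compared (4 to 7 leave-one-out). With IgG libraries alone 0 of 14 pair ratios passed, and leave-one-out the number ran from 0 (without any single p-UPF1 library, where no P can pass) to 14. The sign of Edem1 over input turned to 0.012 with DESeq2 size factors, 0.012 with DESeq2, 0.084 with an IgG library as the TMM reference and 0.10 without a low-count filter. Os9 over input turned to 0.034 with DESeq2 size factors, 0.034 with DESeq2, 0.11 with an IgG (called higher) and 0.0097 with an input library as the reference, 0.12 without a filter (called higher), 0.014 with a filter at 1 CPM and 0.015 with only the 2 groups compared, and ran from -0.032 to 0.000583 leave-one-out, positive without input library B. Over IgG, Derl3 was -0.029 by upper quartiles and -0.054 by library size, and ran from -0.044 (without IgG library B) to 0.27 leave-one-out. Herpud1 over IgG was -0.13 by upper quartiles and -0.15 by library size, both then called lower, -0.077 with an input library as the reference and -0.00248 with only the 2 groups compared, and ran from -0.011 (without IgG library C) to 0.039 leave-one-out, negative also without p-UPF1 library B. Sel1l over IgG was 0.048 by upper quartiles and 0.023 by library size, no longer past the threshold. The cause was not tested. With those scalings the median of all genes over IgG moved from -0.03 to -0.17 and -0.19. Derl3 had the fewest counts of the members, with a lowest count of 61, and the part of depth in its values was not tested.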
